A study of Mus musculus with 3 samples.

Results

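The genes Nr2f2, Ephb4, Ackr1, Plvap and Lrg1 mark the venous side of the vasculature, and their ribosome-associated RNA was measured in endothelial cells of the mouse heart. The genes were chosen by symbol from the deposited table, in which all 5 were found among 17583 genes. The table holds 3 libraries, 1 from each of 3 EC-RiboTag mice with the genotype Cdh5-CreERT2;Rpl22tm1.1Psam. Cre recombinase driven by Cdh5 sequences and activated with tamoxifen adds a hemagglutinin tag to the ribosomal protein RPL22 in endothelial cells of arteries, capillaries, veins, lymphatics and endocardium alike, so the RNA recovered with the tag is a mixture of all these vessels. The sample labels date the hearts to 7 days after coronary ligation and the titles carry the letters Rz. The study abbreviates the remote zone of the infarcted heart as RZ, also where RNA of EC-RiboTag mice was measured by PCR at this time. The labels do not spell the letters out, and the methods of the RiboTag experiment and the legend that describes these libraries name neither an infarction nor a zone, so that the remote zone is the likely but not the stated source. Mice of the study were adults on a C57BL/6 background, and the labels give neither age nor sex for single animals. No input library and no second condition was analysed here, and the values are therefore levels within the immunoprecipitate and not enrichments. In such a mixture, fewer cells of a type and less RNA per cell cannot be told apart.

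The unit of the table is the normalized count, a read count divided by the size factor of its library and rounded to a whole number. These values summed to 7149102, 7158585 and 7268785 in mice 1, 2 and 3. Rounding leaves gaps and doubled whole numbers among low values, and from their pattern the libraries hold about 7321000, 6753000 and 7564000 reads on these genes. Because a longer transcript yields more reads, levels of different genes were compared as normalized counts per kilobase (kb) of the canonical transcript. The libraries carried the defining endothelial transcripts. Cdh5, which encodes VE-cadherin, had 2808, 2860 and 2930 normalized counts, and the 14 genes of a list shared by all endothelial cells had a median of 688.5 normalized counts per kb against 106.5 for the 14395 genes of known length whose mean reached 10. Transcripts of cardiomyocytes, which should not carry the tag, were also prominent. Ttn, the gene of the sarcomere protein titin, had the highest count of all genes in the table. Per kb, the myosin light chain gene Myl2 had 819 and the troponin gene Tnnt2 769, against 713 for Cdh5, and the 8 cardiomyocyte genes had a median of 446. Per kb of all annotated exons these genes lay below Cdh5, with 179 for Myl2, 153 for Tnnt2 and 654 for Cdh5. How much of the RNA came from cells other than endothelium was not tested. The effect of duplicate removal on abundant genes such as Myl2 and Cdh5 was not tested either. Libraries also differed in their makeup. The 7 lymphatic genes summed to 3739, 4662 and 5421 normalized counts in mice 1, 2 and 3, and the 11 heart capillary genes to 18115, 16811 and 15480. Xist had 4, 618 and 869 normalized counts and the Y-linked Ddx3y 1080, 3 and 1. This is the pattern of a male in mouse 1 and of females in mice 2 and 3. Where mouse 1 differs from mice 2 and 3, sex and single animal cannot be told apart.

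Venous identity is set early in development and maintained in the adult. The orphan nuclear receptor COUP-TFII, encoded by Nr2f2, is the transcription factor best known for it, and it holds back the Notch pathway that gives arteries their identity. The receptor tyrosine kinase EphB4 is found on veins and its transmembrane ligand ephrin-B2, encoded by Efnb2, on arteries, and signalling between them keeps the vessels apart. Further downstream, small veins and venules are the sites where plasma leaks and leukocytes leave the blood. PLVAP forms the diaphragms of caveolae and fenestrae there, ACKR1 binds and transports chemokines across the venular wall without classical G-protein signalling, and LRG1 is a secreted leucine-rich glycoprotein that modulates TGF-beta signalling through endoglin.

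Reads that match more than 1 place in the genome were removed before counting. Nr2f2 has a close relative, Nr2f1, that shares much of its coding sequence. The 72 bases around the longest stretch common to the canonical transcripts are shown to make clear how a single-end read of this length tells the genes apart. Both windows are coding sequence that begins before the first zinc finger of the DNA-binding domain and ends within it. They are written on the minus strand 5′ to 3′, from chr7:70009793-70009864 for Nr2f2 and chr13:78346396-78346467 for Nr2f1 in GRCm39. Capitals mark the bases that differ.
Nr2f2: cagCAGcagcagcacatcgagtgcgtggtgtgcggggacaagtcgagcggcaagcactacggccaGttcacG
Nr2f1: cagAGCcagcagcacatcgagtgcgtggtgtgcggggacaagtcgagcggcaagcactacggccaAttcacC
The common stretch is 59 bases long and the window holds 5 differences, so a full-length read of 72 bases always covers at least 1 difference between these genes. Reads shortened by trimming could fall within the common stretch. Over the whole canonical transcript of Nr2f2, 5 of 4151 windows of read length (0.120%) had an exact copy elsewhere in the genome. For Lrg1, the most affected of the venous marker genes, 26 of 1732 (1.50%) did. No such window was found for Ephb4, Plvap or Ackr1.

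Ephb4 was the highest of the venous marker genes and the most even of them between mice. Ephb4 (ENSMUSG00000029710; plus strand of chromosome 5, 137348371 to 137376931 in GRCm39) had 2311, 2289 and 2347 normalized counts in mice 1, 2 and 3, a mean of 2316 ± 29.3 (SD, n = 3). The 3 values lie within 1.03-fold of each other, and their coefficient of variation of 1.26% is smaller than the 2.08% that counting alone gives at this depth. By count it ranked 126 of all genes in the table. Per kb it had 531.5 ± 6.72 (SD, n = 3), above 96.9% of these 14395 genes. This level corresponds to roughly 1 read for every other base of the transcript. Duplicates of single-end reads had been removed. The effect of this step on the level and evenness of abundant genes, and on ratios between them, was not tested.

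Nr2f2 was present at a moderate and even level. Nr2f2 (ENSMUSG00000030551; minus strand of chromosome 7, 70001692 to 70016483) had 999, 965 and 919 normalized counts, a mean of 961 ± 40.1 (SD, n = 3). Mouse 1 was highest and mouse 3 lowest, and their 95% Poisson intervals for counting error, 939 to 1062 and 861 to 979, overlapped. Per kb of its canonical transcript, Nr2f2 had 228 ± 9.51 (SD, n = 3), above 75.5% of genes. Its relative Nr2f1 had 105, 101 and 103 normalized counts and was lower in each of the 3 mice. The log2 ratio of Nr2f2 to Nr2f1 per kb was 3.10 ± 0.06 (SD, n = 3), an 8.60-fold difference (exact sign-flip permutation test, two-sided p = 0.25). Per base of all annotated exons it was 2.52, a 5.72-fold difference. With 3 mice 0.25 is the smallest p the test allows, so no ratio given here can be called significant.

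Plvap and Lrg1 lay between Ephb4 and Nr2f2 per kb. Plvap (ENSMUSG00000034845; minus strand of chromosome 8, 71950409 to 71964396) had 785, 852 and 937 normalized counts, a mean of 858 ± 76.2 (SD, n = 3). Mouse 1 was lowest and mouse 3 highest, and the counting intervals of these mice, 732 to 841 and 879 to 998, did not overlap. Per kb, Plvap had 409 ± 36.3 (SD, n = 3), above 92.5% of genes. Lrg1 (ENSMUSG00000037095; minus strand of chromosome 17, 56426678 to 56429001) had 402, 554 and 477 normalized counts, a mean of 478 ± 76.0 (SD, n = 3). For Lrg1, mouse 1 was lowest and mouse 2 highest, 1.38-fold apart, with counting intervals of 364 to 443 and 508 to 604. With its short transcript of 1803 bases, Lrg1 had 265 ± 42.2 per kb (SD, n = 3), above 80.7% of genes.

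Ackr1 stood apart from the other venous marker genes by a low level and a wide spread between mice. Ackr1 (ENSMUSG00000037872; minus strand of chromosome 1, 173159453 to 173161317) had 24, 116 and 69 normalized counts in mice 1, 2 and 3, a mean of 69.7 ± 46.0 (SD, n = 3). Mouse 2 was 4.83-fold above mouse 1. These values rest on about 25, 109 and 72 reads, and the counting intervals of 15.8 to 36.0, 94.9 to 139 and 54.1 to 87.1 normalized counts did not overlap between any of the mice. The coefficient of variation of 66.0% was therefore well above the 12.1% expected from counting. Per kb, Ackr1 had 20.8, 101 and 59.8 in the 3 mice, above 18.0%, 48.3% and 34.1% of genes. Without mouse 1 its mean was 92.5 normalized counts, and without mouse 2 it was 46.5. In the annotation, 361 of the 1405 exonic bases of Ackr1, and 113 of the 1153 bases of its canonical transcript, are also exon of Cadm3, an adhesion molecule gene on the same strand. Reads that overlap several genes were counted for none of them. If the authors' older annotation holds the same shared exons, which was not tested, the level of Ackr1 is a lower estimate. Cadm3, looked up after the values of Ackr1 were seen, had 75, 161 and 156 normalized counts and was also lowest in mouse 1.

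**Figure D1:**
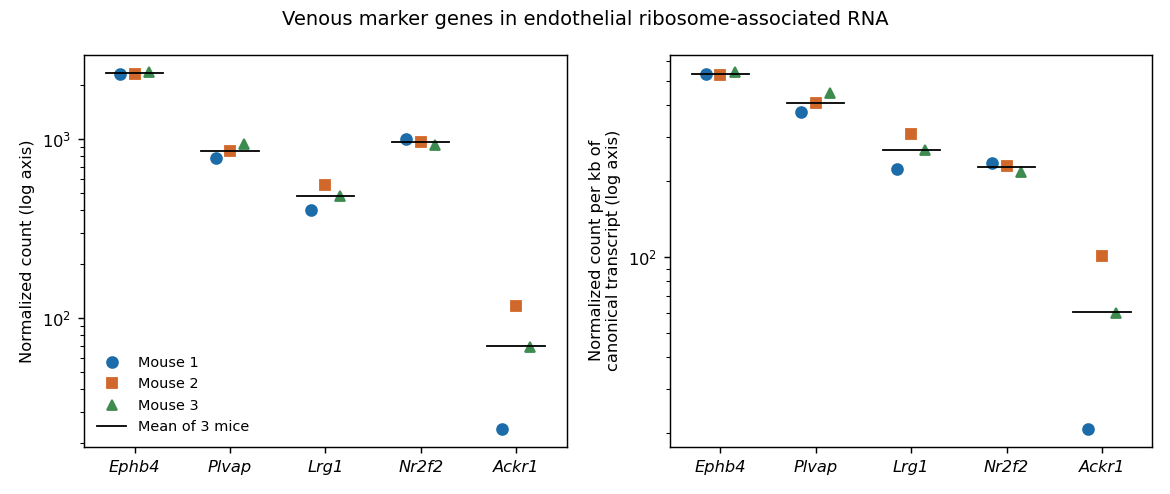
Normalized counts (left) and normalized counts per kb of canonical transcript (right) of the 5 venous marker genes on log axes, with 1 point per mouse and a line at the mean of 3 mice. Ephb4 lies at 2289 to 2347 normalized counts in all mice, whereas Ackr1 ranges from 24 in mouse 1 to 116 in mouse 2.

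Per kb of the canonical transcript, the order of the means was Ephb4, Plvap, Lrg1, Nr2f2 and Ackr1. All 10 pairs were compared within each mouse on the log2 scale. In 9 of the 10 pairs the same gene was higher in all 3 mice (exact sign-flip permutation test, two-sided p = 0.25, adjusted p = 0.278 over the 10 pairs). Ephb4 exceeded Plvap by a log2 ratio of 0.38 ± 0.12 (SD, n = 3), and Plvap exceeded Lrg1 by 0.64 ± 0.20. The neighbours Lrg1 and Nr2f2 did not differ beyond their spread. Their log2 ratio of Nr2f2 to Lrg1 was -0.21 ± 0.26 (SD, n = 3), with Nr2f2 higher in mouse 1 and lower in the other mice (exact permutation p = 0.50, adjusted p = 0.50). Ackr1 lay below Nr2f2 in each mouse, by a log2 ratio of 3.48 in mouse 1, 1.18 in mouse 2 and 1.85 in mouse 3. Without mouse 1 the mean of this ratio fell from 2.17 to 1.52. The order and the size of the ratios depend on the length by which counts are divided. Per base of all annotated exons, Lrg1 exceeded both Plvap and Nr2f2 in each mouse, and without division by length Nr2f2 exceeded both Plvap and Lrg1 on average. Per base of all annotated exons, a length of 9403 bases for Nr2f2 against 4222 for its canonical transcript, the log2 ratio of Nr2f2 to Ackr1 was 2.61, 0.31 and 0.98 in mice 1, 2 and 3, with a mean of 1.30. When the exonic bases that Ackr1 shares with Cadm3 were also left out, it was 2.18, -0.12 and 0.55. Its mean of 0.87 was a 1.83-fold difference, and Ackr1 was then the higher gene in mouse 2 (exact permutation p = 0.50).

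Each venous gene was lower per kb than Cdh5, the endothelial gene whose regulatory sequences drive the Cre of these mice. Ephb4 came nearest, with a log2 ratio to Cdh5 of -0.42 ± 0.02 (SD, n = 3). Plvap followed with -0.80 ± 0.10, Lrg1 with -1.44 ± 0.22, Nr2f2 with -1.65 ± 0.09 and Ackr1 with -3.82 ± 1.13 (SD, n = 3 each). The direction was the same in all 3 mice for each gene (exact sign-flip permutation test, two-sided p = 0.25, adjusted p = 0.25 over 5 ratios). By the length of all annotated exons the ratio was -2.68 for Nr2f2 and -1.55 for Plvap, and without division by length it was -5.62 for Ackr1, -2.60 for Lrg1 and -1.74 for Plvap. For Ackr1 alone the ratio differed by more than 1 log2 unit between mice, with -5.04, -2.82 and -3.60. Whether the removal of duplicate reads changed ratios between abundant genes, such as Ephb4 and Cdh5, was not tested.

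Partners of each protein were found in the same libraries, though some listed genes had only a few normalized counts. For EphB4, the ligand gene Efnb2 had 2268, 1966 and 2047 normalized counts and 418 per kb. Ephb4 was higher than Efnb2 per kb in each of the 3 mice, 1.27-fold on average. The log2 ratio was 0.35 ± 0.10 (SD, n = 3 mice; two-sided p = 0.25 in the exact sign-flip permutation test). Receptor and ligand, often used as opposite markers of veins and arteries, were thus both recovered from this mixture. The other ligand gene Efnb1 had 470 per kb and Efnb3 only 44.1. Rasa1, which encodes a Ras GTPase-activating protein that binds EphB4, had 200 per kb. Among the related receptors, Ephb1 had 126 per kb and Ephb3 11.5, while Ephb2 and Ephb6, with means of 8.67 and 8.33 normalized counts, were barely detected. Ephb4 was therefore the most abundant of the 5 EphB receptor genes listed.

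Of the 6 genes listed as family members and partners of Nr2f2, 3 lay above the median gene per kb. Nr2f6, a more distant COUP-TF relative, was the highest with 420 per kb. Smarca4, which encodes the chromatin remodeller BRG1, had 196 per kb and Foxc1, a forkhead factor of vascular development, 144. Prox1, the lymphatic regulator that acts together with COUP-TFII, had 349, 554 and 550 normalized counts and was lowest in mouse 1, in which Nr2f2 was highest. Zfpm2, encoding the cofactor FOG2, had 18.2 per kb, the lowest of the list.

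The 6 genes listed with Plvap, for caveolae and the VEGF receptor that induces fenestrae, were more even and mostly more abundant. Their median was 622 per kb, led by Cav1 with 838 per kb, and Cavin2 was the lowest with 339. Per kb of canonical transcript Plvap lay above Cavin2 and below the other 5 genes, whereas per kb of all annotated exons (223 against 328) and by count it lay below Cavin2 too. None of the 6 was lowest in mouse 1, whereas Plvap was, as were 33.9% of the 14441 genes that averaged 10 or more. Of the 7 genes listed with Lrg1, all lay above the median gene per kb. Acvrl1, the type I receptor ALK1, had 837 per kb and endoglin (Eng) 809, whereas Tgfbr1, encoding ALK5, had 117 and was the lowest.

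Of the 9 genes listed with Ackr1, 3 lay above the median gene per kb. The chemokine scavenger gene Ackr3 was the highest with 295 per kb and values of 931, 916 and 875 normalized counts. Ackr3 was even between mice, unlike Ackr1. Ackr2, another chemokine scavenger, had 108, 276 and 255 normalized counts, and Ackr4 had 107, 79 and 211. Among the chemokines that bind ACKR1, Ccl2 had 168 per kb and Cxcl1 153, both above the median gene. Ccl5, a chemokine of T cells and platelets among others, had 18, 94 and 49 normalized counts, and Cxcl5 was the lowest of the list with 2.96 per kb.

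The venous genes were set against other endothelial lists to place their level. The 5 venous marker genes had a median of 265 per kb, and 4 of the 5 lay above the median gene. A list of 13 other venous and venular genes had a median of 134 per kb, with 7 of 13 above the median gene. Nrp2, a semaphorin and VEGF co-receptor, led this list with 577 per kb, and Sele, the cytokine-induced E-selectin, was lowest with 12.3. The 17 arterial genes had a median of 336 per kb and 16 lay above the median gene, with Efnb2 the highest and Hey2 the lowest. The 11 heart capillary genes were higher, with a median of 714 per kb, between Btnl9 at 434 and Gpihbp1, the capillary anchor of lipoprotein lipase, at 1637. By this length Ephb4 lay above every arterial gene listed and above Btnl9, Aqp7 and Car4 of the capillary list, whereas by count the arterial gene Notch4, with 2557, exceeded it. Per kb of all annotated exons the medians were 223 for the venous marker genes, 109 for the other venous genes, 229 for the arterial genes and 362 for the capillary genes, against 56.4 for the 14395 genes. Ephb4, with 461, then lay above Cd36, Fabp4, Lpl and Rgcc as well. These medians are descriptions of lists of unequal size and specificity, and the effect of duplicate removal on the most abundant genes was not tested.

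**Figure D2:**
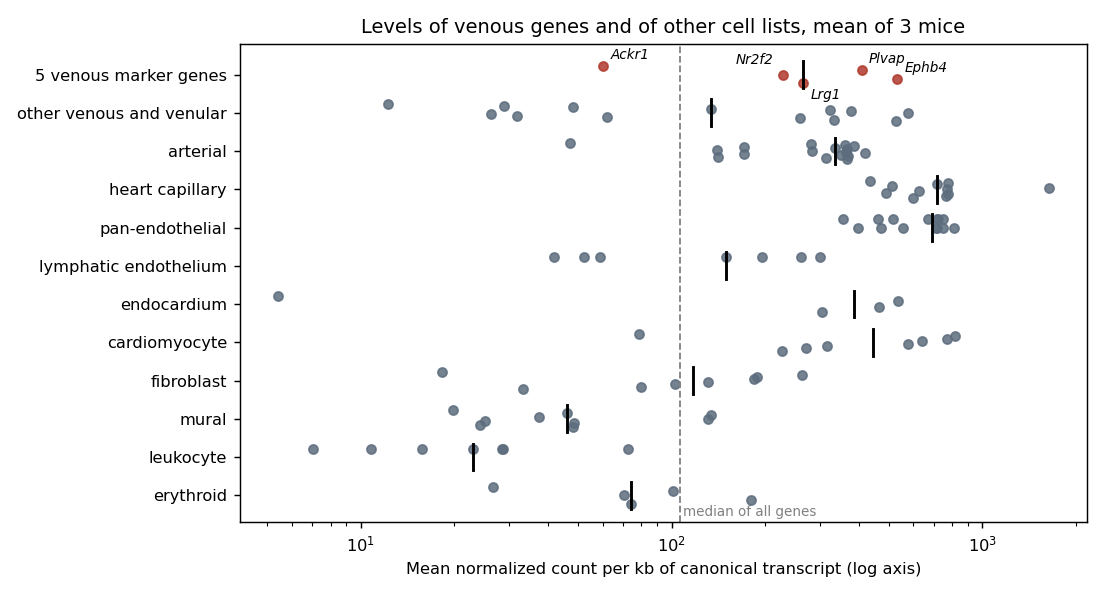
Mean normalized counts per kb of canonical transcript over 3 mice on a log axis, with 1 point per gene, a vertical bar at the median of each list and a dashed line at the median of the 14395 genes. The venous marker genes have a median of 265 per kb, between those of the lymphatic list (149) and the heart capillary list (714) at this length.

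How evenly the venous genes were recovered was described by the coefficient of variation between mice. Of the 9358 genes that averaged 200 normalized counts or more, 8.00% varied by more than 20%. None of the 4 venous marker genes with such a mean did, with coefficients of 1.26% for Ephb4, 4.18% for Nr2f2, 8.88% for Plvap and 15.9% for Lrg1 around a median of 7.37% over these 9358 genes. Without mouse 3, the coefficient of variation of Lrg1 was 22.5%, and the count was then 1 of 4. Ackr1, with its low mean, was not among the genes counted. At a minimum mean of 10, where 24.2% of genes varied by more than 20%, it was the 1 venous marker gene of 5 to do so. Among the 13 other venous genes, 8 reached a mean of 200, and Vwf and Slco2a1 varied by more than 20%. Both rested on mouse 3, without which the coefficient of variation was 0.45% for Vwf, from 30.4%, and 8.21% for Slco2a1, from 25.4%.

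The venous genes did not move together between mice. Ackr1, Lrg1 and Plvap were lowest in mouse 1, as were 33.9% of the 14441 genes that averaged 10 or more. Of the 13 other venous and venular genes, 8 were lowest in mouse 1. The P-selectin gene Selp, whose product is stored in endothelial granules and exposed to capture leukocytes, had 74, 210 and 214 normalized counts. Tmem252 had 78, 230 and 144, and Sele 32, 52 and 54. These genes share with Ackr1 a low value in mouse 1. Sele rests on only about 33, 49 and 56 reads, with a coefficient of variation of 26.4% against 14.8% expected from counting. Counting intervals were computed for the venous marker genes only. Without mouse 1, the coefficient of variation of Selp fell from 48.0% to 1.33%, whereas that of Ackr1 was still 35.9%. In contrast, Vwf, the gene of von Willebrand factor, had 1898, 1886 and 3098 normalized counts. It was highest in mouse 3, as were 8 of the 13 genes against 30.9% of the 14441 genes. Icam1, Vcam1 and Il1r1, which take part in leukocyte adhesion and inflammation, varied by less than 4%.

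**Figure D3:**
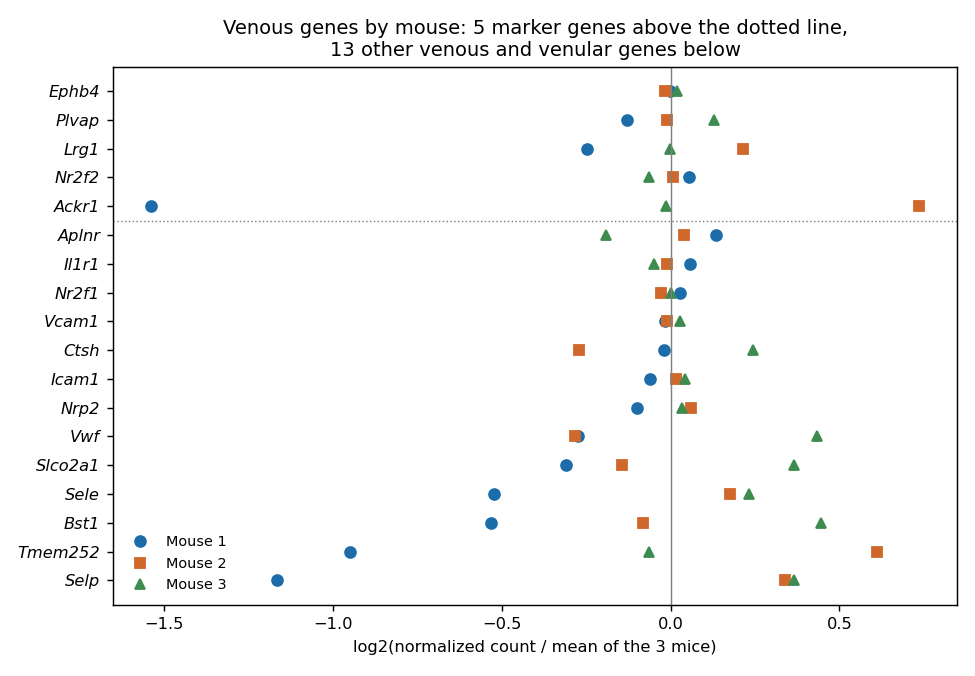
log2 of the normalized count of each mouse over the mean of the 3 mice for the 5 venous marker genes (above the dotted line) and 13 other venous and venular genes (below), with 1 point per mouse. Ackr1, Selp and Tmem252 lie farthest to the left in mouse 1, and Bst1 and Vwf lie farthest to the right in mouse 3.

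Transcripts of other cell types moved between the same mice. Of all genes that averaged 10 or more, 33.9% were lowest in mouse 1 and 30.9% were highest in mouse 3. All 7 lymphatic genes were lowest in mouse 1, from Prox1 to Lyve1 with 645, 758 and 1023 normalized counts, and their most abundant gene was Flt4 with 1396, 1628 and 1898. For Ccl21a, with 251, 271 and 254, the coefficient of variation of 4.17% was below the 6.22% expected from counting. Of the 7 leukocyte genes in the table, 6 were lowest in mouse 1, and they summed to 455, 681 and 689 normalized counts. Lyz2 was the most abundant of them, Ptprc (CD45) had 94, 190 and 154, and of the neutrophil genes S100a9 had 9, 10 and 8, while S100a8 and Ly6g were not in the table. The 9 mural genes summed to 1755, 2218 and 2500 with Rgs5 the most abundant, and the 8 fibroblast genes to 3238, 3709 and 4478 with Dcn the most abundant. The 4 endocardial genes were each highest in mouse 3 and summed to 3467, 2746 and 4556, with the natriuretic peptide receptor gene Npr3 at 1589, 914 and 2228. The part of these transcripts in the values of Ackr1, Lrg1, Plvap and Vwf was not tested.

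Several of the venous genes are not particular to veins. Nr2f2 is also used by lymphatic endothelium, fibroblasts and atrial cardiomyocytes, Ackr1 by erythroid cells and Lrg1 by neutrophils. For Ephb4 and Plvap, this mixture does not show whether they are particular to veins. By level per kb, Ephb4 lay closest to Erg and Kdr, both on the list shared by all endothelial cells. The atrial list had 5 of 6 genes in the table, without Bmp10, and summed to 715, 649 and 838 normalized counts. Its most abundant gene, the natriuretic peptide gene Nppa, had 329, 415 and 318. Myl7 had 138, 14 and 105, Sln 27, 1 and 24, Myl4 179, 116 and 219, and Dkk3 42, 103 and 172. These genes differed in the mouse that was lowest, which was mouse 2 for Myl7, Sln and Myl4, mouse 3 for Nppa and mouse 1 for Dkk3. The erythroid list had 5 of 6 genes in the table and summed to 331, 334 and 369 normalized counts, led by Hbb-bs with 121, 118 and 119. Alas2, the enzyme of erythroid heme synthesis, was less even, with 39, 47 and 77. The erythroid membrane gene Slc4a1 was not in the table, which lists no gene that stays below 4 in all libraries. The part of atrial, erythroid and neutrophil RNA in the values of Nr2f2, Ackr1 and Lrg1 was not tested. The 8 cardiomyocyte genes summed to 19248, 20003 and 23022 normalized counts.

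**Figure D4:**
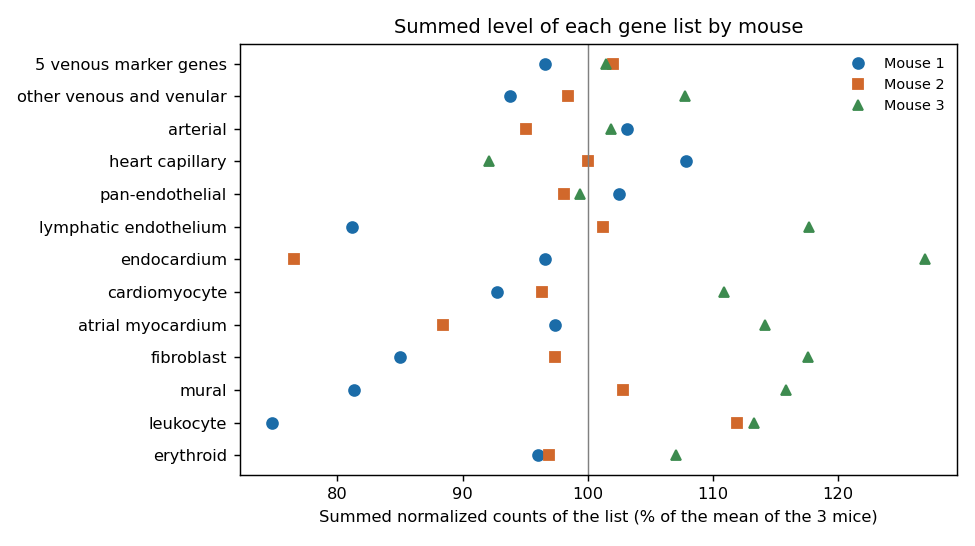
Summed normalized counts of each gene list as a percentage of the mean of 3 mice, with 1 point per mouse. The lymphatic list lies at 81.2% in mouse 1 and 117.7% in mouse 3, whereas the 5 venous marker genes stay between 96.6% and 102.0%, a sum that Ephb4 dominates.

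For each venous gene, the most similar levels were looked for among the 143 other listed genes with a value in every mouse, by the root mean square difference of log2 levels per kb over the 3 mice. Ephb4 was closest to the ETS factor gene Erg (0.06) and to Kdr (0.06), which encodes VEGF receptor 2. Plvap was closest to Smad1 and the Notch receptor gene Notch4 (0.13 each). Lrg1 was closest to Flt4, the gene of VEGF receptor 3 (0.18), and Smad5 (0.20), and Nr2f2 to Tgfbr2 (0.20) and Ryr2 (0.24). Ackr1 had no gene as close, with 0.39 for Ackr2 and 0.42 for Selp, both lower in mouse 1. The measure reflects level above all and says little about shared variation over 3 libraries.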

How the data were processed

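The authors trimmed single-end reads of 72 bases with Trimmomatic 0.39, aligned them to mm39 with STAR 2.7.11a, discarded duplicates (Picard 3.1.1), reads with several alignments and reads of ribosomal or mitochondrial origin, counted reads over exons by strand with featureCounts 2.0.4, leaving out reads that overlap several genes, and normalized with DESeq2 1.36.0. The deposited values are a score, namely normalized counts rounded to whole numbers, so no count model was fitted. Levels are means and SDs over the 3 libraries, which the labels call biological replicates. Lengths came from the GENCODE M39 annotation of GRCm39, newer than the authors' release, for 17475 of 17583 genes (99.4%). Ratios used a pseudocount of 0.5 and an exact two-sided sign-flip permutation test within mice, adjusted by Benjamini-Hochberg within each family, with 17 ratios in all. Depth was estimated from the pattern of whole numbers. The estimate was tried on simulated data, and no outcome of that trial is reported here. Counting intervals are 95% exact Poisson intervals on the estimated reads and cover counting error only. Copies of read-length windows were searched with BLAST 2.17.0. The 5 genes and the lists were chosen with earlier results of these data known. Some listed genes are not reported here. Genes named are these 5, Cdh5, Efnb2, Nr2f1, genes of the lists, and the 2 most similar listed genes for each. Cadm3, Xist and Ddx3y, and the list genes singled out for their differences between mice, were chosen after values were seen. Python 3.11.15 with numpy 2.4.6, pandas 2.3.3, scipy 1.17.1 and matplotlib 3.10.9 was used.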

Additional observations from a re-analysis of the deposited data

How the results depend on the processing

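Of 165 alternative values computed, 4 reversed, and 11 moved, by more than 1 SD between mice for levels and percentiles or by more than 1.5 times for counts. The levels with a mouse left out are among the 165 but could not move by this rule. Leaving out a single mouse always shifts the mean by less than 1 SD. Ratios between genes were compared by direction, and many that kept it changed in size. Of the 17 ratios, 9 moved by over 1.5-fold per base of all annotated exons, 11 without division by length and 9 by unshared exons, the largest shift being 3.78-fold for Ephb4 to Ackr1 without division by length. Per base of all exons the log2 ratio of Nr2f2 to Ephb4 went from -1.22 to -2.17, and without division by length that of Nr2f2 to Ackr1 went from 2.17 to 4.04. Without division by length, the log2 ratio of Nr2f2 to Plvap reversed to 0.17 and that of Nr2f2 to Lrg1 to 1.02. Per base of all annotated exons, that of Plvap to Lrg1 reversed to -0.24, and by exons not shared with another gene on the strand, a length chosen after seeing the data, it was also -0.24. The annotated lengths differ between these settings, from 1803 bases for Lrg1 under each of them to 2097 or 3842 for Plvap. The percentile of the level moved by more than its SD for 4 genes. Among every gene with a length it was 79.8 for Nr2f2 and 97.5 for Ephb4. By exonic length it was 70.5 for Nr2f2, 99.3 for Ephb4 and 95.1 for Lrg1. Without division by length it was 84.7 for Nr2f2, 99.1 for Ephb4, 81.0 for Plvap and 60.1 for Lrg1. That of Ackr1, 34.8 with an SD of 15.2 between mice, was 46.3 among every gene with a length, 46.1 by exonic length and 20.3 without division by length. Scaling by trimmed means or to equal totals and a pseudocount of 5 reversed no value computed under them and moved none. The scaling factors lay between 0.995 and 1.003 for trimmed means and between 0.989 and 1.006 for equal totals. The levels therefore had almost no room to move, and ratios within a mouse were not computed under other scalings.

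The count of venous marker genes that varied by more than 20% was 0 of 4 in the reported setting and 1 of 5 at a minimum mean of 10. With a mouse left out it was between 0 and 1, the latter being Lrg1 without mouse 3, with a coefficient of variation of 22.5%. The mean of Ackr1 was between 46.5 and 92.5 normalized counts with a mouse left out, and its log2 ratio to Cdh5 between -4.32 and -3.21. Without mouse 1, 3 of the 17 ratios moved by over 1.5-fold, namely those of Nr2f2, Ephb4 and Cdh5 with Ackr1. No mean ratio changed direction when a mouse was left out. No paired analysis was possible because the 3 libraries form a single group, with no second condition to pair by mouse. Ratios between genes were taken within each mouse. Depth limits Ackr1 most, since it rests on 25 to 109 reads per library.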
